A study of Rattus norvegicus with 8 samples.

Results

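Voltage-gated sodium channel subunits were compared between the atrium and the ventricle of the normal rat heart. The subunits were taken by symbol, as every probe set annotated to Scn1a, Scn3a, Scn4a, Scn7a, Scn10a, Scn2b, Scn3b or Scn4b, which gave 10 of the 31042 probe sets and 8 of the 14217 genes measured. Of these genes, 5 encode alpha subunits, each read by 1 probe set, and 3 encode beta subunits, of which Scn2b and Scn3b were each read by 2 probe sets and Scn4b by 1. A probe set is a group of short oligonucleotides matched to 1 transcript, and its value is a log2 signal intensity, so that a difference of 1 is a doubling of signal. Values of different probe sets are not set against each other, because each probe set has its own response.

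Voltage-gated sodium channels open when the membrane depolarizes and carry the fast inward current of the upstroke of the action potential in nerve and muscle. The alpha subunit is the large protein that forms the pore, and the small beta subunits, which cross the membrane once, modify the gating of the pore, its transport to the surface and its adhesion to other proteins. The alpha subunits described here are known mainly from neurons, glia and skeletal muscle, and some have also been described in the heart.

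The samples were 4 atrial and 4 ventricular pools from 13 normal, untreated male Sprague Dawley rats of 225 to 275 g, whose age was not given in the sources used here. The atrial samples were appendages and the ventricular samples were free wall, and that they came from the left side rests on the study's methods. Each array read 10 μg of RNA from 1 pool, so that the spread between arrays is a spread between pools of several animals, and which animals went into which pool was not given. The p-values therefore measure the spread between these pools, which may be smaller than that between animals. All 4 arrays of each tissue were used.

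The labelled tissues were checked against their markers. All 6 atrial muscle markers were higher in the atria, with a mean log2 level of 11.66 to 11.88 in the atria and 6.63 to 7.3 in the ventricles, and all 5 ventricular muscle markers were lower, at 5.03 to 7.07 in the atria and 10.21 to 10.29 in the ventricles. The atrial pools were uneven in some of these. The brighter probe set of the ventricular light chain Myl2 had log2 levels of 10.48, 4.32, 6.82 and 11.3 in the atria, against 13.23 to 13.3 in the ventricles. Between the tissues 38.8% of all probe sets differed in limma's moderated test at a p under 0.05 after Benjamini-Hochberg adjustment over all probe sets (adjusted p), 20.1% being lower and 18.6% higher in the atrium. Levels are per amount of RNA of a whole tissue, so fewer cells of a type and less RNA per cell cannot be told apart here.

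The subunits differed between the tissues mainly in 1 gene. Scn4b was 9.51 fold lower in the atrium, Scn3b and Scn3a were lower by less, Scn7a was lower by a small amount and Scn2b was higher on 1 of its probe sets. No call was made for Scn1a, Scn4a and Scn10a. At an adjusted p under 0.05, 5 of the 10 probe sets were called, 4 lower and 1 higher, and the same 5 had atrial values that did not overlap the ventricular ones, as 37% of all probe sets did. Counted by gene, with each gene read on its brightest probe set, 4 of 8 genes were lower and 1 was higher in the atrium, while among all 14217 genes 22.5% were lower and 22.5% higher. With so few members these shares set nothing apart, and the median difference was -0.27 over the 8 genes and -0.05 over all probe sets. The study used the SAM statistic at a false discovery rate of 0.01% with a fold of at least 1.8. With limma's adjusted p under 0.0001 in place of the SAM rate and the same fold, called the study thresholds here, 4.51% of all probe sets passed and 1 subunit probe set was among them, that of Scn4b.

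**Figure D1:**
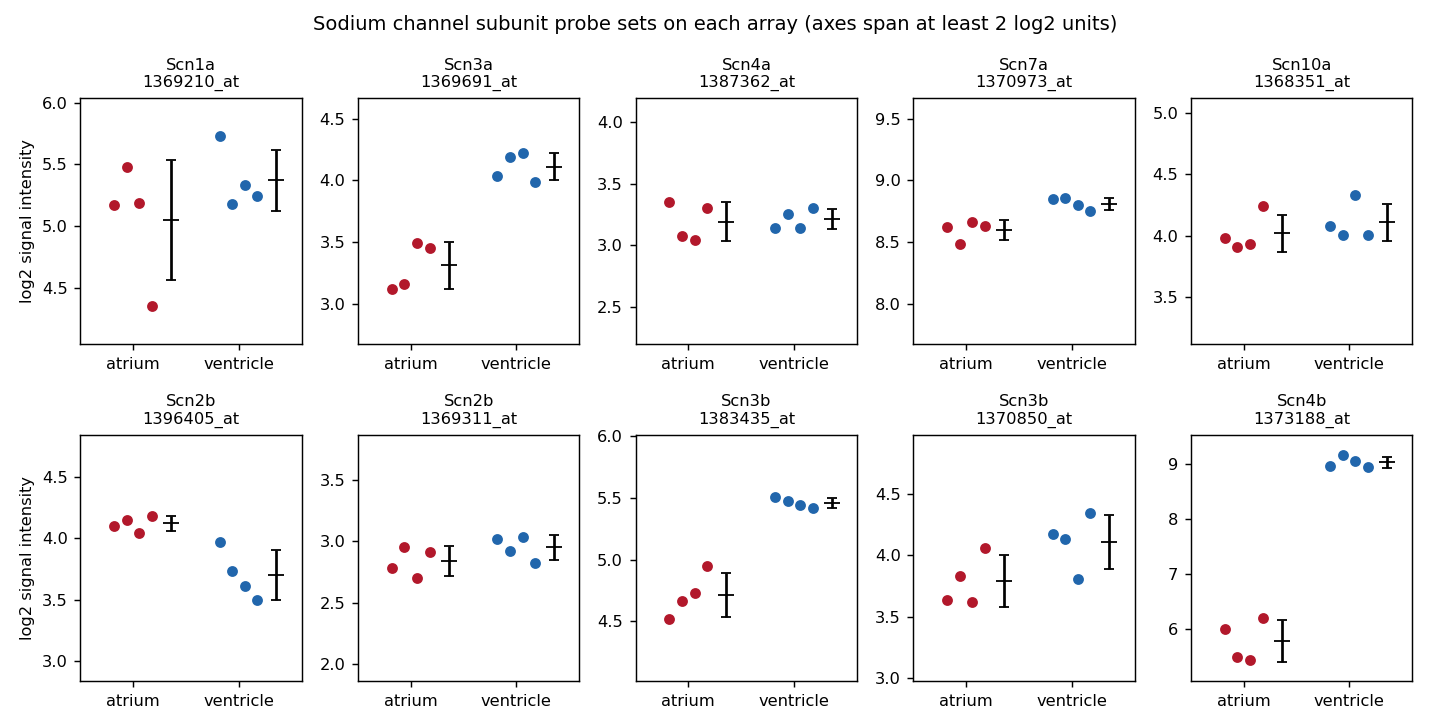
Log2 signal intensity of the 10 sodium channel subunit probe sets on each array, with the atrial pools in red, the ventricular pools in blue and the mean and SD of the 4 pools in black; each panel has its own axis. Scn4b lies between 5.44 and 6.21 in the atria and between 8.95 and 9.16 in the ventricles, Scn3a and the first Scn3b probe set are also separated with lower atrial values, and Scn1a has 1 low atrial pool at 4.35.

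Among the beta subunits, Scn4b encodes a subunit that is bound to the alpha subunit by a disulfide bond and whose cytoplasmic tail can block the open pore in neurons. Its probe set (1373188_at) had log2 levels of 6, 5.5, 5.44 and 6.21 in the atria, against 8.97, 9.16, 9.06 and 8.95 in the ventricles. The tissues were far apart, with the lowest ventricular value well above the highest atrial value, and the atrial pools spread more than the ventricular ones. The means were 5.79 ± 0.38 in the atria and 9.03 ± 0.1 in the ventricles (SD, n = 4 each), a log2 difference of -3.25 (SE 0.16, 95% confidence interval -3.59 to -2.9, adjusted p = 1.1e-07). By size this difference was rank 71 among all probe sets, with 0.226% of them differing by more in either direction.

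Within the atria, Scn4b was higher in pools 1 and 4 than in pools 2 and 3. The same pools held more of the ventricular light chains Myl3 and Myl2, the latter on its brighter probe set only. The dimmer probe set of Myl2 had log2 levels of 4.12, 3.94, 4.12 and 4.82 in the atria, against 8.25 to 8.48 in the ventricles. There pool 4 alone stood higher, and pools 1 and 3 read the same. Myl3, the ventricular essential light chain, had log2 levels of 9.93, 8.06, 7.75 and 10.43 in the atria, against 12.82 to 13.03 in the ventricles. The ventricular transcription factor Irx4 was low in every atrial pool, at 3.37, 3.24, 3.53 and 3.92, against 7.58 to 7.92 in the ventricles. Without atrial pools 1 and 4, which hold the higher atrial values of Scn4b, its log2 difference was -3.57, which is further down by construction. The part of ventricular muscle RNA in the atrial levels of Scn4b was not tested.

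Scn3b encodes a beta subunit that binds the alpha subunit without a covalent bond. Its brighter probe set (1383435_at) had log2 levels of 4.52, 4.66, 4.73 and 4.95 in the atria, against 5.51, 5.48, 5.44 and 5.42 in the ventricles. No atrial pool reached the ventricular range, which was narrow. The means were 4.71 ± 0.18 in the atria and 5.46 ± 0.04 in the ventricles (SD, n = 4 each), a log2 difference of -0.75 (SE 0.09, 95% confidence interval -0.94 to -0.56, adjusted p = 5.8e-05) or 1.68 fold lower. The other probe set (1370850_at) had log2 levels of 3.64, 3.83, 3.62 and 4.06 in the atria, against 4.17, 4.13, 3.81 and 4.34 in the ventricles. Here the tissues overlapped, and the log2 difference of -0.33 (SE 0.13, 95% confidence interval -0.6 to -0.05) had the same sign but was not called (adjusted p = 0.063).

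Scn2b encodes the beta subunit closest in its disulfide linkage to that of Scn4b, and its probe sets disagreed. On the brighter one (1396405_at) the log2 levels were 4.1, 4.15, 4.04 and 4.18 in the atria, against 3.97, 3.73, 3.61 and 3.5 in the ventricles. All 4 atrial values were above the highest ventricular value, though by a narrow margin from ventricular pool 1. The means were 4.12 ± 0.06 in the atria and 3.7 ± 0.2 in the ventricles (SD, n = 4 each), a log2 difference of 0.42 (SE 0.09, 95% confidence interval 0.21 to 0.62, adjusted p = 0.0053) or 1.33 fold higher. On the other probe set (1369311_at) the levels were 2.78, 2.95, 2.7 and 2.91 in the atria, against 3.02, 2.92, 3.03 and 2.82 in the ventricles. These overlapped, with a log2 difference of -0.11 (SE 0.08, 95% confidence interval -0.28 to 0.06, adjusted p = 0.28), so the higher atrial level of Scn2b rests on 1 probe set, and the mean of both probe sets was not called (0.15, adjusted p = 0.13).

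A log2 of 4 was taken as the low end of the scale, under which a probe set reads little above its background and a fold is understated. Of the 10 subunit probe sets, 2 had both tissue means under this level (Scn4a and the second one of Scn2b), 3 had 1 mean under it (Scn3a and the second one of Scn3b in the atria, the first one of Scn2b in the ventricles), and 5 had neither. The folds of Scn3a and Scn2b may therefore be understated where they rest on such a mean. Whether those transcripts were detected at all was not tested.

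Scn2b and Scn4b are next to each other on chromosome 8 in the RefSeq annotation of the GRCr8 assembly, with no annotated gene between them, and the genes of Scn3b and Scn10a are on the same chromosome. Scn4b was called lower, while Scn2b was called higher on 1 probe set only. The other probe set of Scn2b was near the low end in both tissues and was not called (-0.11, adjusted p = 0.28). To set these 2 neighbours side by side, the 250 bases before the start of each are shown, both on the plus strand, from RefSeq at chr8:54343623-54343872 for Scn4b and chr8:54322133-54322382 for Scn2b. Capitals mark CG dinucleotides.
Scn4b: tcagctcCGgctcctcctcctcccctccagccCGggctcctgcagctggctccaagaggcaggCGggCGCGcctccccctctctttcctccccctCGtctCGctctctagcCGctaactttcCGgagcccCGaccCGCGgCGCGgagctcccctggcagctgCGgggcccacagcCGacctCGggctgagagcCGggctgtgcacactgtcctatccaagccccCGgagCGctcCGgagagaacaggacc
Scn2b: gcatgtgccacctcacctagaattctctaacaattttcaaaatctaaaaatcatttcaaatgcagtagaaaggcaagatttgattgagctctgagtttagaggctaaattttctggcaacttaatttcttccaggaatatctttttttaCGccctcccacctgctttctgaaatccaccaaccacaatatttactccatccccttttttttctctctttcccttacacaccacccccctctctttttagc

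The window of Scn4b was rich in CG dinucleotides and that of Scn2b was poor in them. Scn4b had 21 of them and 71.6% G and C, and 15.1% of 33465 rat promoter windows of the same length held at least as many CG dinucleotides and 6.42% at least as much G and C. Scn2b had 1 CG dinucleotide and 38.8% G and C, while the median window held 5 and 51.2%. The E-box letters CANNTG occurred 2 times in the Scn4b window and 3 times in the Scn2b window, and at least once in 65.5% of all windows. On both strands neither window held GGGCGG (30.5% of all windows), CCAAT (34%), TATAAA (12.9%), the T-box letters AGGTGT (11.6%), the GATA letters AGATAA (10.3%) or CACGTG (5.59%), which is 1 form of CANNTG. A window was at hand for 6 of the 8 subunit genes, not for Scn1a and Scn3b.

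Among the alpha subunits, Scn3a showed the largest difference. It encodes a channel known from the embryonic nervous system and lies on chromosome 3 beside Scn2a. Its probe set (1369691_at) had log2 levels of 3.12, 3.16, 3.49 and 3.45 in the atria, against 4.04, 4.19, 4.22 and 3.99 in the ventricles. The tissues did not overlap, and the ventricular pools lay close to a log2 of 4. The means were 3.31 ± 0.19 in the atria and 4.11 ± 0.11 in the ventricles (SD, n = 4 each), a log2 difference of -0.8 (SE 0.1, 95% confidence interval -1.02 to -0.58, adjusted p = 9.7e-05) or 1.74 fold lower. The low atrial mean may understate this fold.

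Scn7a, also on chromosome 3, encodes a relative of these channels that is known as a sensor of extracellular sodium in glia and is not opened by voltage in the usual way. Its probe set (1370973_at) had log2 levels of 8.62, 8.48, 8.66 and 8.63 in the atria, against 8.85, 8.86, 8.8 and 8.75 in the ventricles. Every atrial value was below every ventricular value, by a small amount. The means were 8.6 ± 0.08 in the atria and 8.81 ± 0.05 in the ventricles (SD, n = 4 each), a log2 difference of -0.22 (SE 0.06, 95% confidence interval -0.36 to -0.08, adjusted p = 0.02) or 1.16 fold lower, and 42% of all probe sets differed by more. The call was lost without atrial pool 2 (adjusted p = 0.055), ventricular pool 1 (0.054) or ventricular pool 2 (0.052), and with the replicate number as a block (0.052).

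Scn1a encodes a channel of the central nervous system that has also been described in the sinoatrial node. Its probe set (1369210_at) had log2 levels of 5.17, 5.48, 5.19 and 4.35 in the atria, against 5.73, 5.18, 5.33 and 5.24 in the ventricles. The tissues overlapped, and atrial pool 4 was lower than all other pools. The log2 difference was -0.32 (SE 0.21, 95% confidence interval -0.79 to 0.14, adjusted p = 0.25), and without atrial pool 4 it was -0.09 (adjusted p = 0.59).

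Scn4a, the skeletal muscle channel, and Scn10a, the tetrodotoxin-resistant channel of sensory neurons, gave values around or under a log2 of 4 in both tissues. Scn4a (1387362_at) had log2 levels of 3.35, 3.07, 3.04 and 3.3 in the atria, against 3.14, 3.25, 3.14 and 3.3 in the ventricles, a difference of -0.02 (SE 0.08, 95% confidence interval -0.2 to 0.17, adjusted p = 0.89). Scn10a (1368351_at), on chromosome 8, had log2 levels of 3.98, 3.91, 3.93 and 4.24 in the atria, against 4.08, 4.01, 4.33 and 4.01 in the ventricles, a difference of -0.09 (SE 0.1, 95% confidence interval -0.3 to 0.12, adjusted p = 0.48). In both genes the tissues overlapped, and the intervals reached no further than -0.3 on the lower side and 0.17 on the higher side. So near the low end a difference in transcript may be understated, and the intervals do not bound it.

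**Figure D2:**
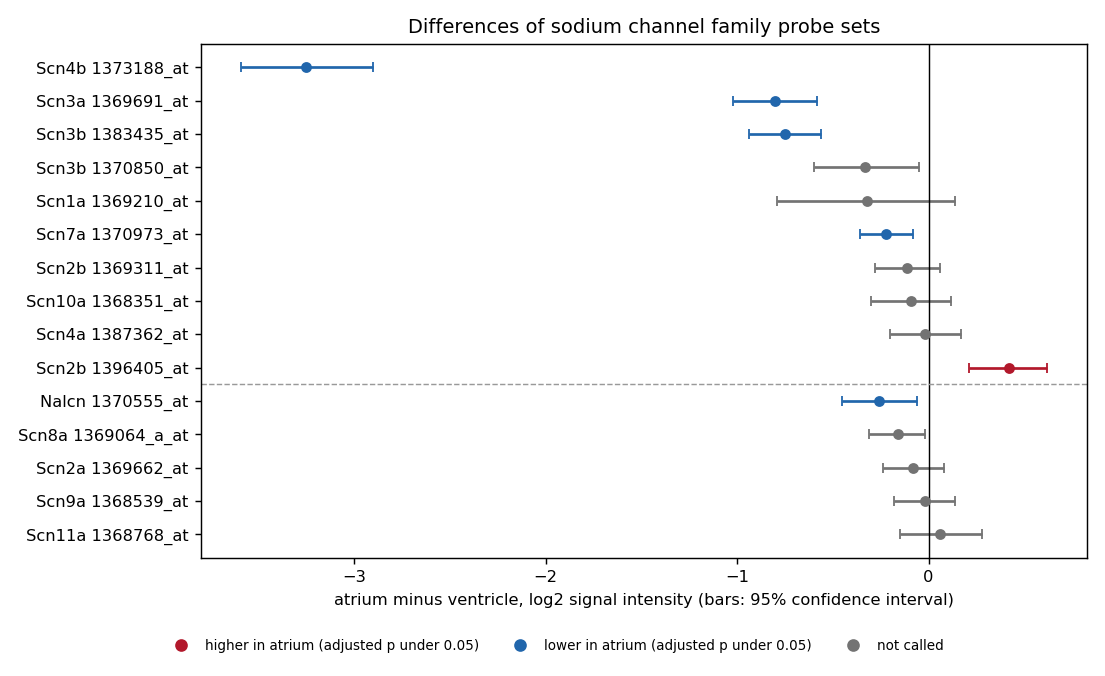
Log2 difference, atrium minus ventricle, of the 10 subunit probe sets (above the dashed line) and of 5 other genes of the channel family (under it), with 95% confidence intervals from limma. Scn4b stands at -3.25, Scn3a and Scn3b at -0.8 and -0.75, and Scn2b 1396405_at is the one probe set called higher in the atrium, at 0.42.

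Whether 2 subunits differed between the tissues by unequal amounts was tested on the log2 difference between the 2 genes within each array, for the 10 pairs of alpha subunits and the 3 pairs of beta subunits. The difference of Scn4b was 2.5 log2 units further down than that of Scn3b (SD 0.26 between arrays of a tissue) and 3.66 further down than that of Scn2b (SD 0.29), and that of Scn3b was 1.17 further down than that of Scn2b (SD 0.16). Scn3a was 0.78 further down than Scn4a (SD 0.23), 0.71 than Scn10a (SD 0.16) and 0.59 than Scn7a (SD 0.13). In each of these 6 pairs the arrays of the tissues were completely separated, which gives the smallest p that 70 arrangements of 4 against 4 arrays allow, 0.029 in a two-sided exact permutation test. Adjusted over the 13 pairs this p was 0.062, so 0 pairs passed at 0.05, and 6 passed without adjustment. With so few arrays a pair can pass the adjustment only if most of the 13 pairs are completely separated, whatever the size of its gap. The 0 therefore does not show that the differences were equal. The other 7 pairs had p of 0.086 to 0.83 in the same exact test. The pairs of Scn2b depend on which probe set stands for it. Scn3a, Scn4a and Scn10a lay around or under a log2 of 4, where a fold may be understated. The gaps between these 3 genes may be affected by this.

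Of 5 further genes of the channel family that were measured, 1 was called. Nalcn, the sodium leak channel that is open at rest, had log2 levels of 3.79, 3.96, 4.07 and 3.77 in the atria, against 3.97, 4.19, 4.19 and 4.27 in the ventricles. The tissues overlapped, and the log2 difference was -0.26 (SE 0.09, adjusted p = 0.043). That call was lost when any of 6 of the 8 arrays was left out in turn. The neuronal channels Scn8a (-0.16, adjusted p = 0.072), Scn2a (-0.08, 0.4), Scn9a (-0.02, 0.82) and Scn11a (0.06, 0.63) were not called, and the first 3 of these had both means under a log2 of 4.

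The profile of Scn4b over the 8 arrays was shared most closely by genes with lower atrial levels of a similar size. Likeness was the root mean square distance between profiles after each gene was centred on its own mean, over 10653 genes with a mean of at least 4. The nearest was Fhl2, a LIM domain cofactor of heart muscle, at a distance of 0.12, with log2 levels of 9.12, 8.71, 8.75 and 9.27 in the atria, against 12.09, 12.07, 12.03 and 12.08 in the ventricles. Fhl2 was higher in atrial pools 1 and 4 than in pools 2 and 3, as Scn4b was. The next were the lysine methyltransferase Smyd2 (0.19), the G protein signalling modulator Gpsm1 (0.2), the tubulin Tuba8 (0.21) and the slow myosin heavy chain Myh7 (0.21).

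The differences of these genes were near that of Scn4b, which the distance favours by construction. They were -3.11 in Fhl2, -2.97 in Smyd2, -3.52 in Gpsm1, -3.46 in Tuba8 and -3.42 in Myh7. Smyd2 had log2 levels of 6.7, 5.93, 6.01 and 7.06 in the atria, against 9.33 to 9.46 in the ventricles, and Myh7 had 6.28, 6.32, 6.27 and 6.68 in the atria, against 9.5 to 10.03 in the ventricles. Smyd2 again had its higher atrial values in pools 1 and 4, while in Myh7 pool 4 alone stood higher. To the first probe set of Scn2b the closest were Utp6 and Zfp426 (distance 0.07 each), Tmem238 and Cobl (0.08 each) and Inka2 (0.09), all with small differences of 0.36 to 0.5.

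**Figure D3:**
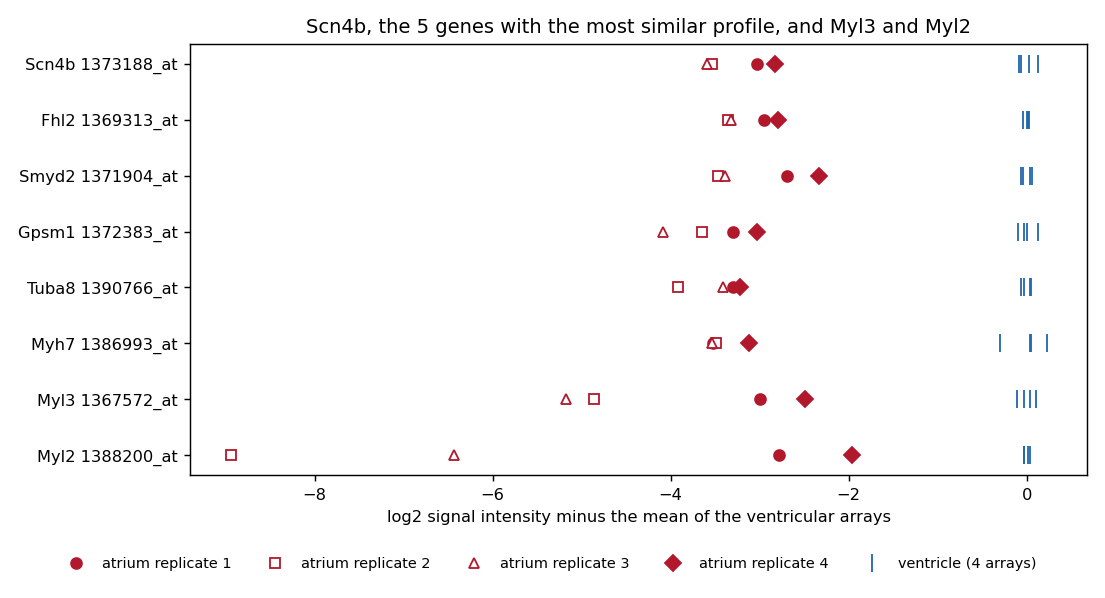
Log2 signal intensity of Scn4b, of the 5 genes with the most similar profile and of the ventricular light chains Myl3 and Myl2, each relative to the mean of the 4 ventricular arrays; red symbols are the atrial pools and blue bars the ventricular arrays. In Scn4b, Fhl2 and Smyd2 atrial pools 1 and 4 (filled) lie above pools 2 and 3 (open). On the Myl2 probe set shown, the brighter of its probe sets, the atrial pools spread widely, with measured levels of 4.32 to 11.3.

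Genes of proteins that bind, anchor or modify sodium channels were mixed in direction. Of 33 listed partners 27 were measured, of which 11 were higher in the atrium, 6 were lower and 10 were not called, with a median log2 difference of 0.04. Among all genes 22.5% were higher and 22.5% lower. The share of lower partners, 6 of 27, was near that of all genes, and the share of higher partners, 11 of 27, was above it. The partners are a chosen list, and nothing is read from these shares. Fgf12, a fibroblast growth factor homologous factor that binds the intracellular tail of the alpha subunit, had log2 levels of 8.56, 8.62, 8.73 and 8.24 in the atria, against 7.59, 7.4, 7.45 and 7.39 in the ventricles. It was 2.11 fold higher (difference 1.08, SE 0.1, adjusted p = 1.3e-05), and it alone among these partners passed the study thresholds. A second probe set of Fgf12 gave 1.41 (adjusted p = 1.5e-06), and the remaining one, near the low end, gave -0.04 (0.61).

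The ubiquitin ligase Nedd4l, which marks channels for removal from the surface, had log2 levels of 6.99, 7.06, 6.98 and 6.72 in the atria, against 6.35, 6.13, 6.16 and 6.43 in the ventricles. The tissues did not overlap, and the difference was 0.67 (SE 0.09, adjusted p = 0.00026). Dystrophin (Dmd), part of the complex that anchors channels at the lateral membrane, was higher by 0.65 (SE 0.11, adjusted p = 0.001). Fgf13, a relative of Fgf12, was higher by 0.4 (SE 0.08, adjusted p = 0.0017), while Fgf11 and Fgf14 were near the low end in both tissues and were not called.

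The lower partners with the largest differences were Pkp2, Fyn and Rangrf. Plakophilin 2 (Pkp2), a desmosomal protein, had log2 levels of 8.52, 8.47, 8.41 and 8.25 in the atria, against 9.22, 9.28, 9.18 and 9.22 in the ventricles. It was 1.75 fold lower (difference -0.81, SE 0.07, adjusted p = 7.9e-06). The tyrosine kinase Fyn was lower on both of its probe sets (-0.8, adjusted p = 1e-05, and -0.6, 5.5e-05), and Rangrf, whose product helps sodium channels to reach the surface, was lower by 0.79 (SE 0.08, adjusted p = 2.5e-05). None of these 3 had overlapping tissues. For some partners the call depends on the probe set: Ank3, which tethers channels to the cytoskeleton, was not called on its brightest probe set (0.21, adjusted p = 0.15), but was higher on another (0.51, 0.0021) and lower on one near the low end (-0.49, 0.00075).

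**Figure D4:**
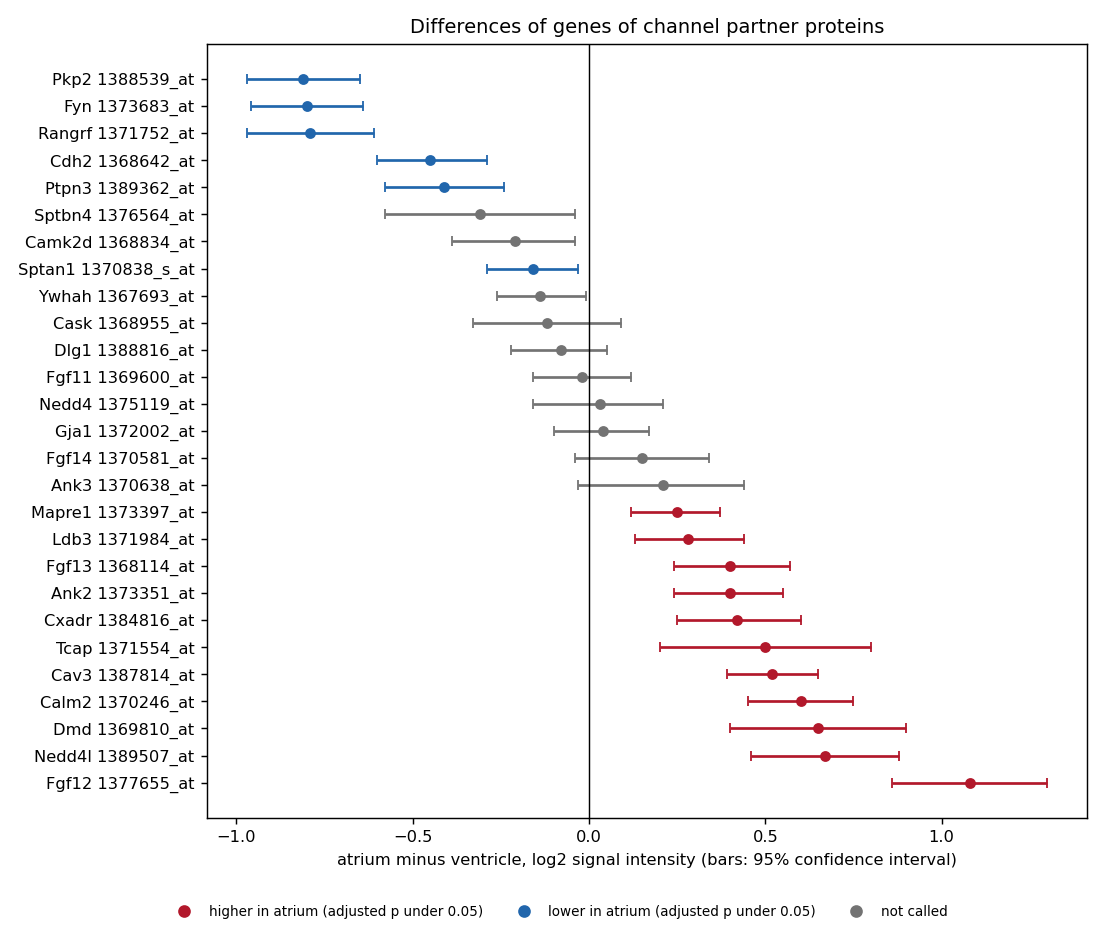
Log2 difference, atrium minus ventricle, of the 27 measured genes of channel partner proteins, each on its brightest probe set, with 95% confidence intervals from limma; red is higher and blue lower in the atrium at an adjusted p under 0.05, and grey was not called. Fgf12 stands highest at 1.08, and Pkp2, Fyn and Rangrf stand lowest between -0.81 and -0.79.

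Of 13 listed transcription factors and RNA-binding proteins that are known to act on sodium channel genes or in chamber patterning, 12 were measured, with 3 higher, 4 lower and 5 not called. Among all genes 22.5% were higher and 22.5% lower. The list is chosen and short, and nothing is read from its counts. The T-box factor Tbx5 had log2 levels of 8.61, 8.92, 8.9 and 8.66 in the atria, against 5.85, 6.08, 5.78 and 6.19 in the ventricles, 6.96 fold higher (difference 2.8, adjusted p = 2.5e-08). Meis1 (0.25, adjusted p = 0.014) and Nkx2-5 (0.2, 0.031) were higher by small amounts, but the call of Meis1 was lost with quantile normalization (adjusted p = 0.051), and that of Nkx2-5 with quantile normalization (0.1), with cyclic loess (0.089) and when any of 6 of the 8 arrays was left out in turn. The homeobox factor Irx3 had log2 levels of 2.81, 3.2, 2.78 and 3.05 in the atria, against 7.44, 7.47, 7.82 and 7.48 in the ventricles, 24.1 fold lower (difference -4.59, adjusted p = 1.9e-09). Another probe set of Irx3 was 4.28 fold lower (difference -2.1, adjusted p = 4.5e-08), and one near the low end was not called (-0.1, 0.27). Hey2, a Notch target of ventricular muscle, was 3.37 fold lower (difference -1.75, adjusted p = 1.1e-06), and Foxo1 was lower by 0.66 (adjusted p = 7.6e-05), with -0.28 (0.035) and -0.06 (0.53) on its dimmer probe sets. How these differences relate to the subunits was not tested.

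Several cell types other than muscle cells use these subunits, and their markers were read beside them. Of 15 neuron markers 12 had both means under a log2 of 4, and 2 were higher and 0 lower in the atria, with a mean level of 3.4 to 3.75 in the atria and 3.39 to 3.49 in the ventricles. Of 13 Schwann cell and glia markers 3 were higher (Mbp, S100b and Mal) and 3 lower (L1cam, Sox10 and Gfra3), at 4.35 to 4.61 in the atria and 4.06 to 4.23 in the ventricles. Of 9 skeletal muscle markers 8 had both means under a log2 of 4, and the list stood at 3.97 to 4.07 in the atria and 4.13 to 4.22 in the ventricles. Of 7 conduction system markers 1 was higher (Cacna1g) and 2 were lower (Gja5 and Hcn4), at 4.29 to 4.44 in the atria and 4.35 to 4.43 in the ventricles. Smooth muscle markers were lower in the atria (5 of 5, 6.4 to 6.51 in the atria and 7.03 to 7.2 in the ventricles), as were the ventricular muscle markers (5 of 5). Of the endothelial markers 3 of 5 were lower and Vwf was higher by 0.93 (8.04 to 8.16 in the atria and 8.44 to 8.59 in the ventricles). Fibroblast markers were higher in 7 of 9 (10.02 to 10.34 in the atria and 9.72 to 10 in the ventricles). Markers of mesothelium (4 of 5 higher and Wt1 lower by 0.38, 6.97 to 7.96 in the atria and 4.33 to 4.53 in the ventricles) and adipocytes (3 of 5 higher, 5.46 to 8.1 in the atria and 4.8 to 5.05 in the ventricles) were also mostly higher. Among all genes 22.5% were lower and 22.5% higher. With 2 tissues, a sign shared with the subunits shows no link to them. The part of these cell types in the subunit differences was not tested.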

How the data were processed

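The authors processed the scanned Affymetrix rat genome arrays with RMA, a method that corrects the background, equalizes the distribution of intensities between arrays by quantiles and gives 1 value per probe set. The version of RMA was not given in the sources used here. They deposited log2 values for 31042 probe sets and 8 arrays, from 1.9 to 13.77, with array medians of 4.8 to 4.81. Because the distributions were made equal, a change common to most transcripts cannot be seen. The number of arrays limits the precision, and a probe set had a median SD of 0.117 over the atrial pools and 0.0986 over the ventricular pools.

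Probe sets were named from the platform annotation, in which 20826 carry 1 symbol, 436 several genes and 9780 none. Symbols of 20758 were updated through the gene ID. Each gene of a list stands on its probe set with the highest mean. The deposited values were tested without further scaling, atrium minus ventricle, with limma 3.58.1 in R 4.3.3 and Benjamini-Hochberg adjustment over all 31042 probe sets, and called at an adjusted p under 0.05. The study thresholds take the fold of 1.8 (0.848 log2 units) from the methods and put limma's adjusted p under 0.0001 in place of the SAM FDR of 0.01%. Pairs of subunits were tested by exact permutation. The procedure was tested on simulated data. Plots were made in Python 3.11.15 with matplotlib 3.10.9.

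The subunits, lists and markers were chosen with earlier results of these data known. Named are all subunit probe sets, the other family genes, the 3 called genes with the largest difference in each direction of each other list, and the 5 genes most alike to Scn4b and to Scn2b. Fgf13, Fgf11 and Fgf14, the relatives of Fgf12, as well as Ank3, Tbx3, Gata4 and the cell type markers were added after their values were seen.

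Pools with the same number in the labels had residual correlations of -0.188 to 0.155 and the numbers were not taken as pairs. Alternatives were a trended and robust fit, the SAM statistic of the methods (written anew, 70 arrangements), a block by replicate number, centring on the median, cyclic loess, quantile normalization, leaving out the dimmest 40% of probe sets or each array in turn, other thresholds, and other probe sets of a gene. Leaving out atrial pools 1 and 4 together was added after their values had been seen. Promoter windows are from RefSeq, GRCr8.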

Additional observations from a re-analysis of the deposited data

Results flagged for a closer look

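In groups of 4 arrays, a value was singled out when its gap to the nearest other value divided by the range of the group exceeded Dixon's critical value at the 95% level. Among 54 groups of 4 arrays tested for the subunits and named genes, 2 had such a value, and chance gives about 1 in 20. Neither was a sodium channel subunit. Irx3 stood at a log2 level of 7.82 in ventricular pool 3, against 7.44 to 7.48 in the other ventricular pools. Foxo1 stood at 6.98 in ventricular pool 2, against 6.78 to 6.81 in the other ventricular pools.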

How the results depend on the processing

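Scn4b kept its direction and its call under every alternative fit, normalization or single array left out, with log2 differences of -3.39 to -3.13. It was -3.57 without atrial pools 1 and 4 together, which is further down by construction. Scn3b 1383435_at (-0.83 to -0.69) and Scn3a (-0.86 to -0.71) kept theirs under every other fit, normalization or array left out that tested them, but did not pass the study thresholds, and on the mean of its probe sets Scn3b was -0.54 (adjusted p = 0.001). Scn2b was higher by 0.35 to 0.5 on 1396405_at but had -0.11 (adjusted p = 0.28) on its other probe set. The 5 called subunit probe sets became 3 on omission of the 40% dimmest probe sets, which removes Scn3a and Scn2b from the test, 3 in a test against a fold of 1.2 and 1 at the study thresholds, and ranged from 4 to 6 with each array left out in turn. Scn3b 1370850_at was called with SAM (q = 0.017), in the trended fit (adjusted p = 0.05, just inside the threshold), without atrial pool 4 (0.015) and without ventricular pool 3 (0.018). Of the other family genes, 1 called became 0 in the trended fit, with cyclic loess, with quantile normalization, without the dimmest 40% and without atrial pools 1 and 4 together, 2 with SAM or with the mean of the probe sets, and 0 to 2 with each array left out. With the replicate block 5 subunit probe sets were called, Scn7a lost its call (0.052), Scn3b 1370850_at gained one (0.014) and Nkx2-5 lost its call (0.068). It called 10923 probe sets in all, against 12034 without it and 17193 with SAM. The cause of these changes was not tested. Under same numbers, 2 of 4 pools had their best partner. Pairs of subunits were not tested with arrays left out. With the low end set at a log2 of 5, 7 subunit probe sets had a mean near it instead of 5.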
